A study of Mus musculus with 8 samples.

Results

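Aminoacyl-tRNA synthetases are the enzymes that join each amino acid to its tRNAs. They were taken from the deposited gene table as protein-coding genes whose symbol is an amino acid letter followed by ars, with or without a final 1, 2 or 3, together with Eprs, Farsa and Farsb. This rule found 37 genes among the 21434 in the table, and all 37 were among the 12820 genes that passed the filter on low counts. The cytosolic set held 20 genes, whose symbols end without a number or with 1. The mitochondrial set held 17 genes, whose symbols end with 2. Symbols are those of the table, so that Cars, for example, is the gene now also called Cars1.

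The RNA came from whole pancreas of 18-week-old mice on a C57BL/6N background that received no treatment. The Bach2KO group held 4 mice (mice 1 and 2 female, mice 3 and 4 male) homozygous for Bach2tm1b(EUCOMM)Wtsi, a constitutive knockout allele that is present in every cell. The Bach2WT group held 4 wild-type mice with the same numbers of each sex. Bach2 is a transcriptional repressor best known from lymphocytes, and the comparison asks how its loss in the whole animal alters pancreatic transcripts. The study kept its mice at more than one site, and the labels do not give the site of a mouse.

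A synthetase recognizes a single amino acid and the tRNAs that carry it, so the enzymes set the supply of charged tRNA for protein synthesis. Mammals keep separate nuclear genes for the cytosolic and the mitochondrial enzymes, except that Kars and Gars each encode both forms and that Eprs joins the glutamyl and prolyl enzymes in a single cytosolic protein. Acinar cells, which make up most of the pancreas, secrete large amounts of digestive enzymes and depend on a high rate of translation. Many cytosolic synthetase genes are known targets of ATF4, the transcription factor of the integrated stress response, which binds a C/EBP-ATF response element.

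The core of that element, TGATGNAA (reverse complement TTNCATCA), was looked up on both strands of the RefSeq promoters, which run from 250 bases before to 50 bases after each start site. Windows of 30 bases that held it, 1 for each gene, are shown because, within the family, only cytosolic genes held it. The motif lies downstream of the start site in the windows of Aars, Iars and Yars. Capitals mark the 8 motif bases, and each window is written 5′ to 3′ along its gene's strand with GRCm38.p6 coordinates.
Aars (chr8:111033840-111033869, plus strand): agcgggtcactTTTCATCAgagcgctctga
Gars (chr6:55037960-55037989, plus strand): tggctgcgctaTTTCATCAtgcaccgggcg
Iars (chr13:49682126-49682155, plus strand): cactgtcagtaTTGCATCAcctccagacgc
Tars (chr15:11399655-11399684, minus strand): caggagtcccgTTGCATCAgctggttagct
Yars (chr4:129189895-129189924, plus strand): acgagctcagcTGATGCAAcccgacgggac
Asns, asparagine synthetase, an ATF4 target outside the family (chr6:7693214-7693243, minus strand): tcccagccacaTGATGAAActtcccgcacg
Nupr1, a stress-induced nuclear protein and ATF4 target outside the family (chr7:126625562-126625591, minus strand): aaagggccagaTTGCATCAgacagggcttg

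The RefSeq table held a promoter for 13 cytosolic synthetases, and 5 of these (38.5%) had the motif, namely Aars, Gars, Iars, Tars and Yars. None of the 14 mitochondrial synthetases with a promoter in the table had it. The share over all 27025 genes in that table was 4.51%. Among other known ATF4 targets, 8 of 19 (42.1%) held the motif. A match of letters is a description and does not show that the site is bound. Promoters were not in the table for, among others, Cars, Hars, Lars, Nars, Rars, Vars, Wars, Hars2 and Pars2.

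The libraries held 72299745 to 172029360 counts each. The digestive enzyme genes took 85.1% to 88.6% of them, and the 37 synthetases together took only 0.0464% to 0.0898%. Cytosolic synthetases had 76 to 16251 counts per mouse (median 1215), whereas mitochondrial ones had 4 to 80325 (median 106.5), and 11 of the 17 had fewer than 100 counts in at least 1 mouse. Bach2 itself had 3 to 31 counts per library, with overlap between the genotypes, and did not pass the filter, so that its counts could not check the genotype labels. Acinar markers were present at 445388 to 652143 CPM (counts scaled to a common library size) summed over 10 genes, so the tissue label held.

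Transcript levels of the family, compared per gene length as the authors' FPKM (here the counts scaled by their size factors, per kilobase of gene), were uneven. In Bach2WT mice, the median cytosolic synthetase stood at 2.14 FPKM and the median mitochondrial one at 0.251 FPKM. The tryptophanyl enzyme Wars was the highest cytosolic gene at 21.8 ± 3.09 FPKM (SD, n = 4) and made up 27.4% of the cytosolic sum. It was followed by the methionyl enzyme Mars1 (9.27 FPKM) and the seryl enzyme Sars (8.74 FPKM). The lowest were the aspartyl enzyme Dars (0.337 FPKM), Eprs (0.378 FPKM) and Farsa (1.12 FPKM), the catalytic subunit of the phenylalanyl enzyme. Thus the cytosolic genes spanned a 64.8-fold range of FPKM. Such ranks depend on the gene lengths in the table, which gives Eprs 18102 bases. In CPM, Eprs (mean 6.95 in Bach2WT mice) lay above Farsa (5.15).

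The mitochondrial set was dominated by a single gene. Lars2, the mitochondrial leucyl enzyme, had 36.7 FPKM in Bach2WT mice, which was 88.7% of the mitochondrial sum and more than any cytosolic synthetase. Its level followed that of a gene related to 18S ribosomal RNA, as described below. The part of ribosomal sequence in the Lars2 counts was not tested, so its true rank is uncertain. Fars2, the phenylalanyl enzyme, came next with 1.45 FPKM and Vars2, the valyl enzyme, followed with 0.522 FPKM. The lowest were Wars2 (0.0337 FPKM), Mars2 (0.0365 FPKM) and Nars2 (0.0513 FPKM), the tryptophanyl, methionyl and asparaginyl enzymes. With Lars2 and Fars2 set aside, 18 of the 20 cytosolic synthetases lay above every mitochondrial one. The plot of FPKM by mouse shows this separation.

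**Figure D1:**
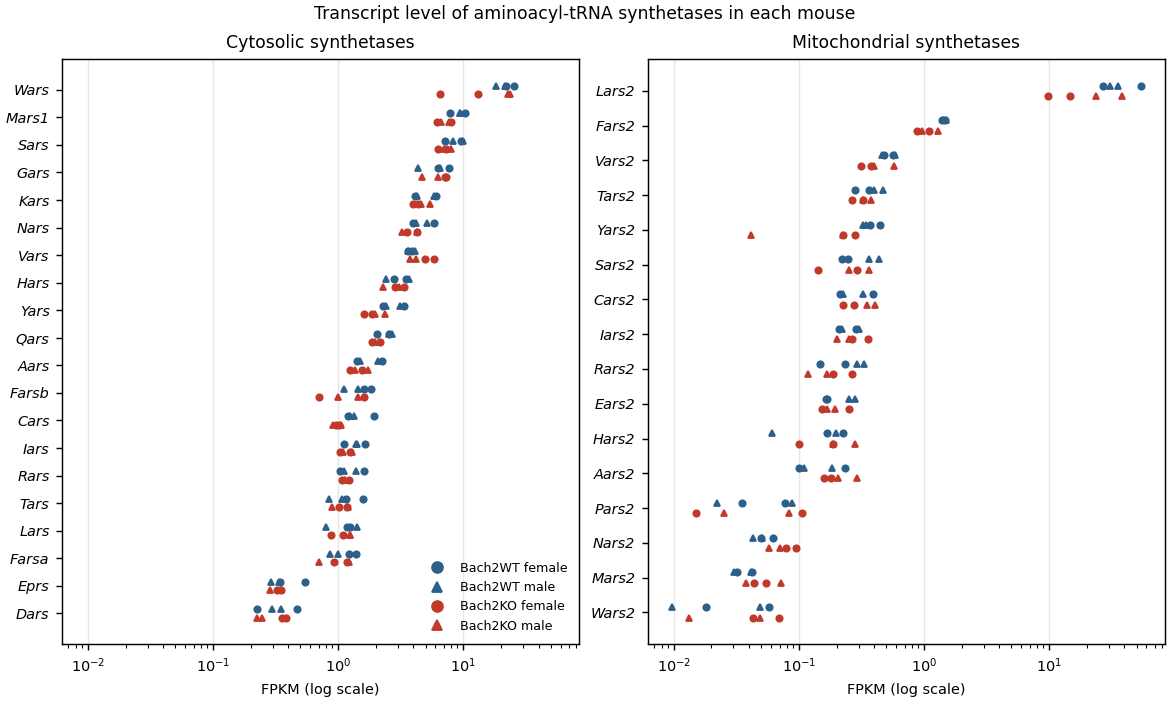
FPKM of each synthetase in each mouse on a log axis, ordered by the Bach2WT mean, with cytosolic genes on the left and mitochondrial genes on the right, 1 of which is not drawn (blue, Bach2WT; red, Bach2KO; circles, female; triangles, male). Lars2 stands apart from the other mitochondrial genes, and the medians of the Bach2WT means are 2.14 FPKM for cytosolic and 0.251 FPKM for mitochondrial genes.

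Setting each cytosolic gene beside the mitochondrial gene for the same amino acid gave 18 pairs, in which Eprs and Fars2 each appear more than once. In 16 of them, the cytosolic transcript had the higher mean FPKM in Bach2WT mice, with a median ratio of 6.14. The ratio was largest for the tryptophan pair (648), the methionine pair (254) and the asparagine pair (93.2), whose mitochondrial genes had the lowest FPKM. Such ratios depend on the gene lengths in the table, which gives Mars2 11294 bases and Mars1 3423. The mitochondrial transcript had the higher mean in the leucine pair, with a ratio of 0.0317, and for Farsa against Fars2, with a ratio of 0.772. The leucine ratio rests on the Lars2 counts, whose limit is given above.

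Between the genotypes, no synthetase passed the test after adjustment over all genes. In edgeR's quasi-likelihood test with Benjamini-Hochberg adjustment, 0 of the 37 had an adjusted p under 0.05, and the smallest adjusted p was 0.570. Over all genes tested, 1 gene (0.0078%) passed. At an unadjusted p under 0.05, 4 synthetases were lower in Bach2KO mice (10.8%, against 3.56% of all genes) and 0 were higher (against 3.9% of all genes). DESeq2 gave 0 members at an adjusted p under 0.05 as well. In simulated counts of this design, the test called 15% of genes changed by a log2 fold of 1 and 70% of those changed by a log2 fold of 2. It also made 9 false calls. The 200 changed genes were drawn from all genes tested, so these shares may differ for the synthetases. The adjustment also depends on how many genes change, so the shares may be lower where fewer do. The log2 differences measured here ranged from -0.91 to 0.58, and changes below a log2 fold of 1 were not simulated. In whole tissue, a smaller share of cells of a type and less transcript per cell cannot be told apart.

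Most cytosolic synthetases had small negative differences. The log2 fold change (Bach2KO minus Bach2WT) was negative for 18 of 20 cytosolic synthetases (90%) and for 9 of 17 mitochondrial ones (52.9%), compared with 45.3% of all genes tested. The median was -0.20 for the cytosolic set, -0.14 for the mitochondrial set and 0.05 over all genes. Without Lars2, 8 of 16 mitochondrial genes were negative and their median was -0.03. The order of the medians was not stable: with at least 10 counts in every mouse they were -0.18 (cytosolic) and -0.19 (mitochondrial), and without Bach2WT mouse 2 they were -0.14 and -0.22. The genes of a set were measured in the same mice and are not independent, so these counts carry no p-value. The TMM factors that scale the libraries were 1.18, 1.07, 1.05 and 1.16 in Bach2KO and 1.10, 0.858, 0.835 and 0.826 in Bach2WT mice. Small differences shared by many genes depend on this scaling, and plain library totals were not tried.

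**Figure D2:**
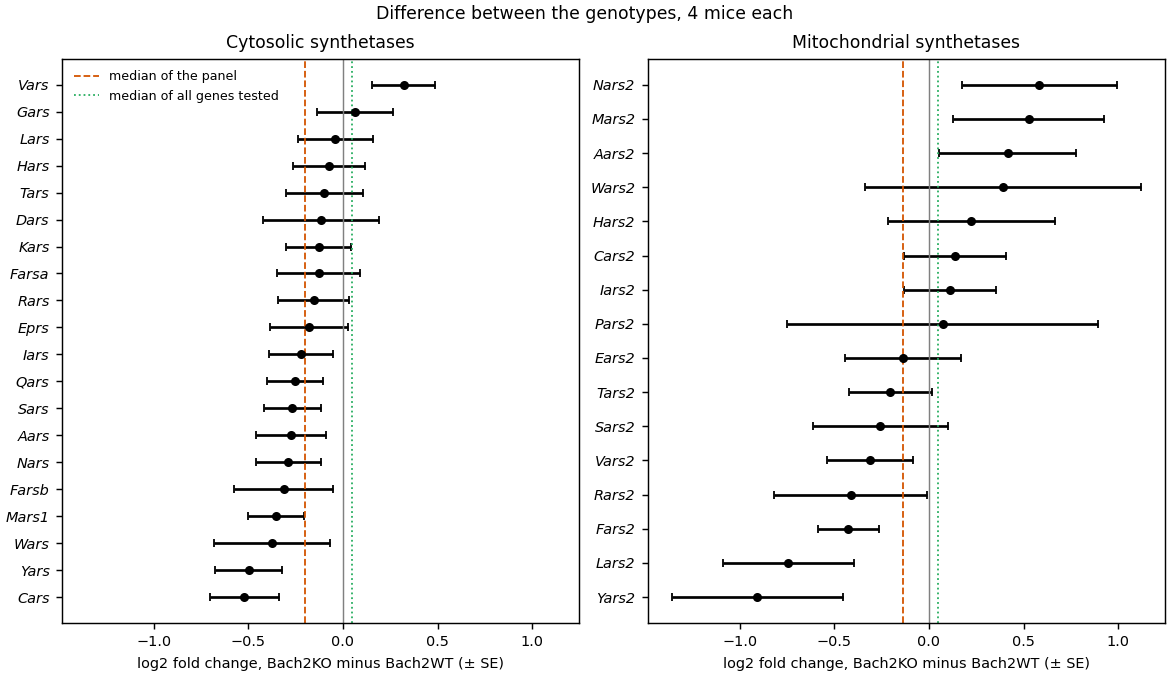
Log2 fold change (Bach2KO minus Bach2WT, 4 mice each) of the synthetases with its standard error (1 mitochondrial gene is not drawn), with dashed lines at the median of each panel (-0.20 cytosolic, -0.14 mitochondrial) and dotted lines at the median of all genes tested (0.05). In the cytosolic panel only Vars and Gars lie above 0, whereas the mitochondrial genes scatter on either side with larger errors.

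The precision of the sets was unequal. The standard error of the log2 fold change had a median of 0.19 for cytosolic genes (0.15 to 0.31) and of 0.36 for mitochondrial genes (0.16 to 0.82). The 10 mitochondrial genes with a difference beyond 0.3 in either direction include such poorly counted ones as Wars2 (4 to 70 counts per mouse). No single gene of either set was called after adjustment.

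Averaged per mouse as mean log2 CPM, the cytosolic set gave 3.22, 3.45, 3.21 and 3.46 in Bach2KO mice 1 to 4, and 3.44, 3.77, 3.56 and 3.36 in Bach2WT mice 1 to 4. The groups overlapped, since Bach2KO mice 2 and 4 lay above Bach2WT mouse 4. The mitochondrial set gave 0.19, 0.50, 0.17 and 0.44 in Bach2KO mice and 0.35, 0.51, 0.39 and 0.49 in Bach2WT mice, again with overlap. Bach2KO mice 1 and 3 were the lowest for each set. The cytosolic minus mitochondrial difference was 3.01 ± 0.04 (SD, n = 4) in Bach2KO and 3.10 ± 0.17 (SD, n = 4) in Bach2WT mice. It thus differed by -0.09 between the genotypes, less than the spread among the wild-type mice.

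**Figure D3:**
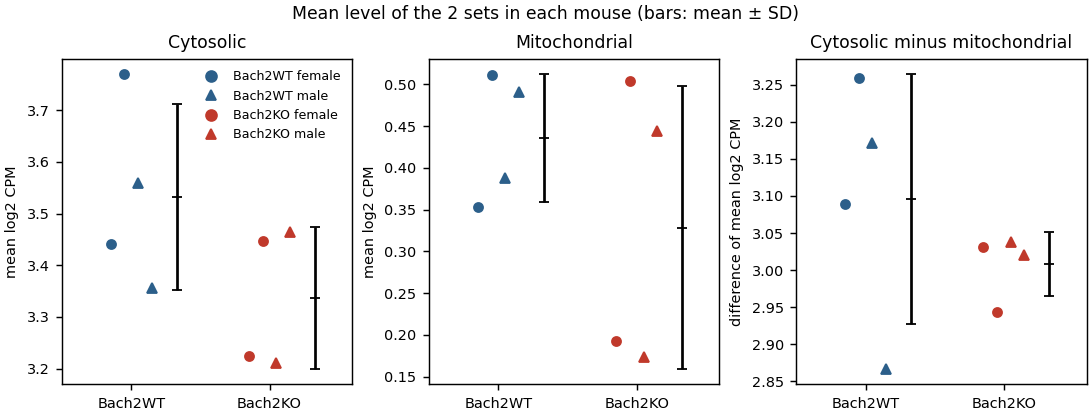
Mean log2 CPM of the 20 cytosolic and 17 mitochondrial synthetases and the difference of these means in each mouse, with the group mean and SD (blue, Bach2WT; red, Bach2KO; circles, female; triangles, male). In every panel the genotypes overlap, and the highest value of each belongs to Bach2WT mouse 2 (3.77, 0.51 and 3.26).

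A single mouse weighed on the cytosolic result. Of the 20 cytosolic genes, 14 had their highest CPM in Bach2WT mouse 2, while 9 had their lowest in Bach2KO mouse 1 and 5 in Bach2KO mouse 3. Without Bach2WT mouse 2, the number of cytosolic genes with a negative log2 fold change was 16, their median was -0.14, and the number of synthetases lower at an unadjusted p under 0.05 dropped from 4 to 1. Leaving out Bach2WT mouse 1 raised that number to 7, and leaving out Bach2KO mouse 1 gave 2. Acinar markers had values of the same sign. Of 10 markers, 9 (90%, against 45.3% of all genes) had a negative log2 fold change (median -0.28), and 3 (30%, against 1.92% of all genes) were lower without overlap between the genotypes, while the smallest adjusted p in edgeR was 0.513. Their sums overlapped, at 445388 to 507774 CPM in Bach2KO and 495495 to 652143 CPM in Bach2WT mice. Their part in the cytosolic result was not tested.

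Cars, the cysteinyl enzyme (chromosome 7, 143110967 to 143153827, minus strand, mm39), was the cytosolic gene with the lowest log2 fold change. Its level was 6.65, 6.87, 6.05 and 7.08 CPM in Bach2KO mice 1 to 4 and 8.09, 13.0, 8.91 and 8.28 CPM in Bach2WT mice 1 to 4. Every Bach2KO mouse lay below every Bach2WT mouse, a pattern shown by 1.92% of all genes tested in this direction. The log2 fold change was -0.52 (SE 0.18, edgeR adjusted p = 0.570), and its unadjusted p was under 0.05. Without Bach2WT mouse 2, the only mouse above 10 CPM, the value was -0.34 and no longer under that threshold.

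Yars, the tyrosyl enzyme (chromosome 4, 129083553 to 129113400, plus strand, mm39), is among the genes with the ATF4 motif shown above, just downstream of its start. It measured 10.1, 11.4, 11.8 and 14.4 CPM in Bach2KO mice and 13.8, 20.3, 18.8 and 14.4 CPM in Bach2WT mice. Only Bach2KO mouse 4 reached into the wild-type range. This gave a log2 fold change of -0.50 (SE 0.18, edgeR adjusted p = 0.593), with an unadjusted p under 0.05 that was lost without Bach2WT mouse 2 (-0.40). The gene C77080 on the opposite strand, with 46.4% as many counts, overlaps Yars by only 30 bases.

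Mars1, the methionyl enzyme that also charges the initiator tRNA (chromosome 10, 127132090 to 127147655, minus strand, mm39), measured 22.3, 28.1, 23.2 and 27.2 CPM in Bach2KO mice and 27.6, 35.9, 32.8 and 32.4 CPM in Bach2WT mice. Bach2WT mouse 1 lay inside the knockout range and the other wild-type mice lay above it. Its log2 fold change was -0.35 (SE 0.15, edgeR adjusted p = 0.648), with an unadjusted p under 0.05. Leaving out Bach2WT mouse 2 gave -0.30, and its unadjusted p rose above 0.05 without that mouse, Bach2KO mouse 1 or 3, or Bach2WT mouse 3 or 4.

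The valyl enzyme Vars was the only cytosolic gene besides Gars with a positive log2 fold change. It measured 34.3, 28.8, 21.4 and 24.1 CPM in Bach2KO mice and 20.9, 22.2, 20.6 and 23.2 CPM in Bach2WT mice. The female Bach2KO mice 1 and 2 were the highest, and mouse 3 lay within the wild-type range. The resulting value was 0.32 (SE 0.17, edgeR adjusted p = 0.718), and without Bach2KO mouse 3 it was 0.40, with an unadjusted p under 0.05.

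**Figure D4:**
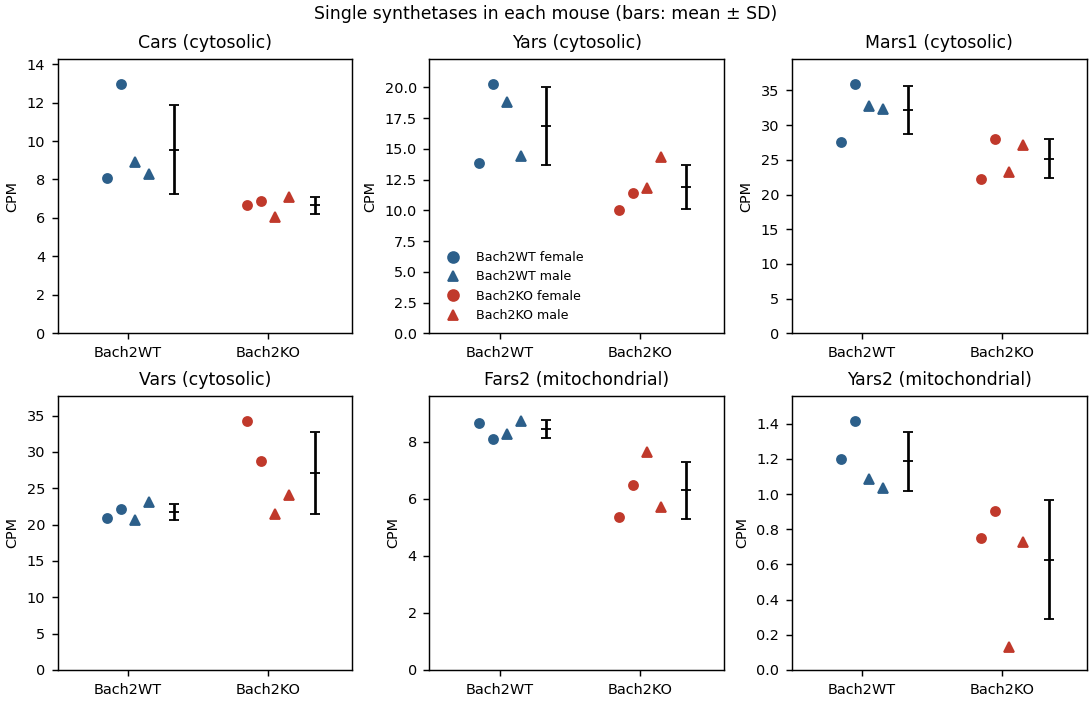
CPM of Cars, Yars, Mars1, Vars, Fars2 and Yars2 in each mouse, with the group mean and SD on axes that start at 0 (blue, Bach2WT; red, Bach2KO; circles, female; triangles, male). The genotypes do not overlap for Cars, Fars2 and Yars2, and Bach2WT mouse 2 stands above the other mice for Cars at 13.0 CPM.

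Among the abundant cytosolic genes, Sars showed 34.4, 38.4, 41.6 and 36.9 CPM in Bach2KO mice and 37.7, 49.9, 51.8 and 42.9 CPM in Bach2WT mice. Its log2 fold change was -0.27 (SE 0.15, edgeR adjusted p = 0.753), with Bach2WT mouse 1 inside the knockout range. The genes at the low end did not separate the genotypes. Dars measured 1.64, 1.74, 1.00 and 1.10 CPM in Bach2KO against 2.11, 0.998, 1.31 and 1.54 CPM in Bach2WT mice (log2 fold change -0.12), and Farsa 4.41, 5.51, 3.24 and 5.68 against 5.63, 6.44, 3.96 and 4.56 CPM (-0.13). Farsb, the other subunit of that enzyme, had a log2 fold change of -0.31 (SE 0.26).

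Wars, the tryptophanyl enzyme (chromosome 12, 108825956 to 108860100, minus strand, mm39), is known to be induced by interferon gamma. It measured 23.8, 46.8, 80.4 and 84.2 CPM in Bach2KO mice 1 to 4 and 76.9, 90.0, 63.1 and 75.0 CPM in Bach2WT mice 1 to 4. The female Bach2KO mice 1 and 2 were the lowest of all 8 mice, whereas the male Bach2KO mice 3 and 4 lay above the male wild-type mice. Over all mice, the log2 fold change was -0.38 (SE 0.31, edgeR adjusted p = 0.852). As a difference of mean log2 CPM, the value was -1.32 within females and 0.26 within males. The sex by genotype interaction fitted in edgeR was 1.50 (male minus female), with an unadjusted p of 0.00367 and an adjusted p of 0.793. In that test 0 genes passed adjustment, while DESeq2 called 15 genes, none of them a synthetase. At an unadjusted p under 0.05, this interaction held 2 of the 37 synthetases (5.41%), Wars and Lars2, against 787 of all genes (6.14%), so the share of synthetases was near that of all genes.

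The interferon-inducible genes were set beside Wars in the same mice. Of 16 genes on that list, 12 passed the filter, and all 12 had a positive log2 fold change (median 1.35), 8 of them with an unadjusted p under 0.05 and 7 without overlap between the genotypes, compared with 3.9% and 2.57% of all genes in that direction. None passed adjustment. Some genes of the list were near the floor in Bach2WT mice, such as Gbp3 with 30, 16, 1 and 0 counts. A gene can pass the filter through 1 genotype alone, so the shared direction of the 12 is not by itself evidence of a difference. The peptide transporter gene Tap1, with 83 to 174 counts in Bach2WT mice, had a log2 fold change of 1.34 (SE 0.29, edgeR adjusted p = 0.340). The GTPase gene Irgm2, with 36 to 76 counts in these mice, gave 1.84 (SE 0.36, edgeR adjusted p = 0.266). Their mean log2 CPM was -0.52, 0.23, 0.15 and 0.26 in Bach2KO mice 1 to 4 and -0.61, -1.51, -1.89 and -2.11 in Bach2WT mice 1 to 4. The mice lowest for Wars, Bach2KO 1 and 2, were not the lowest for this list. Among the Bach2KO mice, however, mouse 1 was the lowest and mouse 4 the highest for both Wars and the list. A link between Wars and the list was not tested.

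Bifunctional genes supply the enzyme of both compartments. Kars, the lysyl enzyme, measured 18.7, 19.9, 20.8 and 24.8 CPM in Bach2KO and 18.9, 27.6, 26.1 and 19.4 CPM in Bach2WT mice, a log2 fold change of -0.13 (SE 0.17). Gars, the glycyl enzyme with a motif window shown above, measured 24.0, 23.2, 14.9 and 20.1 CPM against 20.0, 24.4, 20.6 and 13.8 CPM, a log2 fold change of 0.06 (SE 0.20). The genotypes overlapped for each, and the sign for Gars turned negative when Bach2KO mouse 1 or 2 or Bach2WT mouse 4 was left out.

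Several cytosolic synthetases assemble with the scaffold proteins Aimp1, Aimp2 and Eef1e1 into the multisynthetase complex. All 8 enzymes of the complex (Eprs, Iars, Lars, Mars1, Qars, Rars, Kars and Dars) had a negative log2 fold change, with a median of -0.17. So did 18 of all 20 cytosolic synthetases, and 45.3% of all genes tested. Mars1 was the only enzyme of the complex (12.5%, against 3.56% of all genes) lower at an unadjusted p under 0.05. Eprs, its largest enzyme, measured 6.18, 6.58, 5.26 and 6.54 CPM in Bach2KO and 6.31, 10.0, 5.32 and 6.15 CPM in Bach2WT mice, where Bach2WT mouse 2 alone stood out. Its log2 fold change was -0.18 (SE 0.20), and 0.05 without that mouse. The scaffolds gave log2 fold changes of 0.22 (SE 0.18) for Aimp1, -0.38 (SE 0.32) for Aimp2 and -0.33 (SE 0.54) for Eef1e1.

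Grouping the family by catalytic fold gave the same share of lower genes in each class. Of 18 class I genes, whose enzymes bind ATP in a Rossmann fold, 13 had a negative log2 fold change (median -0.24). Of 18 class II genes, 13 did so as well (median -0.13). Eprs, which holds an enzyme of each class, was left out of this count.

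The synthetases known as ATF4 targets were set beside ATF4 targets of other functions. Of 13 cytosolic synthetases on the ATF4 list, 11 had a negative log2 fold change, with a median of -0.27, and 3 (Cars, Mars1 and Yars) were lower at an unadjusted p under 0.05. These shares of 84.6% and 23.1% compare with 45.3% and 3.56% of all genes. The 7 cytosolic synthetases outside the list all had negative values too, with a median of -0.13 and none at an unadjusted p under 0.05. The difference between these lists was not tested.

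Among 22 other ATF4 targets, 14 had a positive log2 fold change, with a median of 0.23. Nupr1, whose motif is shown above, was the highest of them in CPM averaged over all mice (Phgdh was higher in Bach2WT mice alone) and the only one at an unadjusted p under 0.05. It measured 267 ± 39.1 CPM (SD, n = 4) in Bach2KO and 131 ± 34.3 CPM (SD, n = 4) in Bach2WT mice without overlap, a log2 fold change of 1.03 (SE 0.20; edgeR adjusted p = 0.266). The next most abundant genes, which supply amino acids, had negative values: Phgdh of serine synthesis -0.23 (SE 0.14), Asns of asparagine synthesis -0.28 (SE 0.17) and the amino acid transporter subunit Slc3a2 -0.13 (SE 0.15). Atf4 itself gave 0.07 and Ddit3, which encodes CHOP and overlaps the end of Mars1 by 68 bases on the opposite strand, gave 0.88. The ATF4 targets did not share a direction in these mice. Of the 5 synthetases with a motif match, Aars (-0.27), Iars (-0.22), Tars (-0.10) and Yars (-0.50) had negative values, like most of the cytosolic set, and Gars did not.

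Of the mitochondrial genes, Fars2, the phenylalanyl enzyme (chromosome 13, 36301395 to 36910254, plus strand, mm39), had the smallest p. It measured 5.36, 6.49, 7.62 and 5.71 CPM in Bach2KO and 8.65, 8.09, 8.28 and 8.74 CPM in Bach2WT mice. The genotypes did not overlap, and the wild-type mice lay within a narrow range. The log2 fold change was -0.42 (SE 0.16, edgeR adjusted p = 0.619). Its unadjusted p was under 0.05, but not without Bach2KO mouse 1 (-0.35) or Bach2KO mouse 4 (-0.38).

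Yars2, the mitochondrial tyrosyl enzyme (chromosome 16, 16120829 to 16127504, plus strand, mm39), had the lowest log2 fold change of the family. It measured 0.748, 0.906, 0.132 and 0.726 CPM in Bach2KO and 1.20, 1.42, 1.09 and 1.04 CPM in Bach2WT mice, again without overlap. Bach2KO mouse 3 stood far below the rest. The log2 fold change was -0.91 (SE 0.45, edgeR adjusted p = 0.696), and -0.60 without that mouse. The tyrosyl pair, Yars and Yars2, thus had negative values in each compartment.

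Lars2, the mitochondrial leucyl enzyme (chromosome 9, 123195992 to 123291731, plus strand, mm39), had the widest range between mice among the abundant members, followed by Wars. It measured 115, 169, 432 and 271 CPM in Bach2KO mice 1 to 4 and 304, 612, 340 and 395 CPM in Bach2WT mice 1 to 4, a 5.33-fold span, against 23.8 to 90.0 CPM for Wars. Its log2 fold change was -0.74 (SE 0.35, edgeR adjusted p = 0.668), and ranged from -0.49 without Bach2WT mouse 2 to -1.18 without Bach2KO mouse 3. As a difference of mean log2 CPM, the value was -1.63 within females and -0.10 within males. The interaction fitted in edgeR was 1.63 (male minus female, adjusted p = 0.793). Its cytosolic counterpart Lars stayed between 4.36 and 7.68 CPM.

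The level of Lars2 followed that of Rn18s-rs5, a gene related to 18S ribosomal RNA, mouse by mouse. Rn18s-rs5 measured 1715, 2435, 5617 and 3884 CPM in Bach2KO and 4179, 7076, 4330 and 4854 CPM in Bach2WT mice. All 8 mice had the same rank for each gene, and there were 6.70 to 8.65 Lars2 counts for every 100 of Rn18s-rs5, a much narrower range than that of either gene. The libraries were made from poly(A)-selected RNA, in which ribosomal RNA is largely depleted. Of the 4527 stretches of 31 bases in the Lars2 transcripts, 26 also occur in the gene AA474408 and 22 in Gm15564. The part of ribosomal sequence in the Lars2 counts was not tested, and the comparison with Rn18s-rs5 was chosen after the values were seen.

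**Figure D5:**
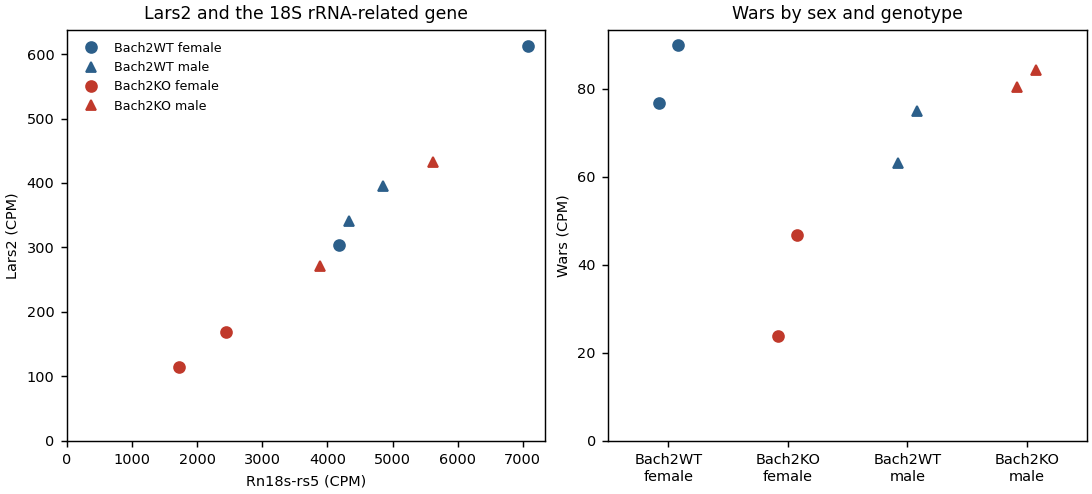
Left, CPM of Lars2 against CPM of Rn18s-rs5 in the 8 mice on axes that start at 0, where the mice take the same rank on each axis; right, CPM of Wars in each mouse by sex and genotype (blue, Bach2WT; red, Bach2KO; circles, female; triangles, male). The female Bach2KO mice are lowest for Wars (23.8 and 46.8 CPM), and the male Bach2KO mice (80.4 and 84.2 CPM) lie above the male Bach2WT mice.

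Because of Lars2, sums over the mitochondrial set say little about the other 16 genes. The summed FPKM was 25.6 ± 12.8 in Bach2KO and 41.4 ± 12.3 in Bach2WT mice (SD, n = 4 each) with Lars2, and 3.93 ± 0.367 against 4.67 ± 0.280 without it. In the latter sum, the mice measured 3.42, 4.12, 4.26 and 3.92 FPKM in Bach2KO and 4.39, 4.60, 4.63 and 5.05 FPKM in Bach2WT, without overlap. With Fars2 also left out, the sums were 2.87 ± 0.223 and 3.22 ± 0.259 FPKM and the genotypes overlapped. For comparison, the cytosolic sum was 67.0 ± 9.27 against 79.7 ± 9.30 FPKM.

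The remaining mitochondrial genes scattered on both sides. Vars2 measured 1.82, 2.14, 3.18 and 2.21 CPM in Bach2KO and 2.65, 3.15, 2.53 and 3.24 CPM in Bach2WT mice (log2 fold change -0.31, SE 0.23). The weakly expressed Nars2 measured 0.575, 0.688, 0.410 and 0.508 CPM in Bach2KO and 0.444, 0.351, 0.355 and 0.302 CPM in Bach2WT mice, and had the highest log2 fold change of the family (0.58, SE 0.41). Only Bach2KO mouse 3 lay within its wild-type range.

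Mars2 measured 0.655, 0.507, 0.819 and 0.441 CPM against 0.489, 0.366, 0.474 and 0.346 CPM (0.53, SE 0.40). Wars2 ranged from 0.0793 to 0.432 CPM in Bach2KO and from 0.0576 to 0.351 CPM in Bach2WT mice (0.39, SE 0.73). None of these genes separated the genotypes.

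Some members overlap a neighboring gene on the opposite strand, and whether counting used strand is not given in the sources used here. For Cars2, Ears2, Hars2, Iars2 and Yars, that neighbor had more than 10% as many counts as the synthetase. The overlap was 984 bases for Cars2 and 2034 bases for Iars2, but only 198 for Hars2, 89 for Ears2 and 30 for Yars. How many counts fell in these stretches was not tested. Log2 fold changes were 0.14, -0.14, 0.22 and 0.11 for Cars2, Ears2, Hars2 and Iars2, each within 1 standard error of 0.

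The difference in log2 fold change within the 18 pairs went in either direction. In 10 pairs the cytosolic value was the lower and in 8 pairs the mitochondrial one. The widest gaps were in the methionine pair (cytosolic minus mitochondrial -0.88), the asparagine pair (-0.87) and the tryptophan pair (-0.77) on one side, and in the leucine pair (0.70) and the valine pair (0.63) on the other. The former involve the mitochondrial genes with the lowest FPKM in Bach2WT mice, and the leucine pair involves Lars2.

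Genes that act beside the synthetases were looked at in the same mice. Mitochondria make glutaminyl-tRNA through an amidotransferase encoded by Gatb, Gatc and Qrsl1, and Mtfmt formylates the initiator methionyl-tRNA. Of these 4 genes, 3 had a positive log2 fold change (median 0.17), with Gatc the exception at -0.42 (SE 0.24). Among genes for editing, tRNA maturation and peptidyl-tRNA hydrolysis, 4 of 8 tested were positive and 4 negative (median -0.01). No gene of either list had an unadjusted p under 0.05.

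Elongation factors, which deliver charged tRNA to the ribosome and move it along, mostly had negative values in each compartment. All 5 cytosolic factors had a negative log2 fold change (median -0.17), from -0.33 for Eef1g (SE 0.18) to -0.09 for Eef1a1 (SE 0.14), and none had an unadjusted p under 0.05. Of 4 mitochondrial factors, 3 were negative (median -0.17), and 1 (25%, against 3.56% of all genes) was lower at an unadjusted p under 0.05. Over all genes tested, 45.3% had a negative value. Tufm, the mitochondrial factor that carries aminoacyl-tRNA, measured 9.55 ± 1.07 CPM in Bach2KO and 12.8 ± 2.48 CPM in Bach2WT mice (SD, n = 4 each) and gave -0.42 (SE 0.17, edgeR adjusted p = 0.642), with an unadjusted p under 0.05.

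Markers of other cell types are given for comparison. Only 5 of 7 T cell markers passed the filter on low counts, and all 5 had positive log2 fold changes (median 0.91). T cell levels were near the floor, and a gene can pass the filter through 1 genotype alone. Their shared direction is therefore not evidence of a difference. Positive values were also found for all 3 endothelial markers (median 0.52), 3 of 5 macrophage markers (median 0.36) and 2 of 3 duct markers (median 0.12). Islet markers were split (2 of 4 positive, median 0.06), whereas 2 of 3 adipocyte markers (median -1.58) and 2 of 3 B and plasma cell markers (median -0.71) had negative values. In the endothelial, macrophage and duct lists, 1 marker each was higher in Bach2KO mice without overlap between the genotypes. In the adipocyte list, 1 marker was lower without overlap. Over all genes tested, 2.57% were higher and 1.92% lower without overlap. None of the markers had an adjusted p under 0.05 in edgeR. The sums overlapped between the genotypes. These were 0.664 to 2.18 CPM in Bach2KO and 0 to 1.70 CPM in Bach2WT mice for T cells, 11.3 to 17.7 and 10.7 to 24.5 CPM for macrophages, 210 to 1933 and 175 to 2234 CPM for islet cells, and 10.6 to 20.9 and 7.46 to 11.7 CPM for endothelial cells. Sums for duct cells were 12.6 to 18.2 and 12.5 to 16.3 CPM, for adipocytes 2.06 to 5.38 and 0.893 to 10.6 CPM, and for B and plasma cells 0.121 to 13.4 and 0.389 to 8.01 CPM. Their part in the synthetase values was not tested.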

How the data were processed

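Poly(A)-selected RNA from 8 pancreata was sequenced. According to the submitters' processing notes, reads were cleaned with fastp, aligned with HISAT2 2.2.1 to mm39 and counted with featureCounts 2.0.6; strand setting and annotation release are not given in the sources used here. The deposited table holds the authors' gene counts, their FPKM, a signal of counts divided by size factors (used only to check the FPKM), and log2 fold changes and p-values of the authors' own comparison (not used).

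Counts were tested with edgeR 4.0.16 (R 4.3.3; filterByExpr, TMM, quasi-likelihood, genotype only) and Benjamini-Hochberg adjustment over 12820 genes. CPM use TMM library sizes; mean log2 CPM use a prior count of 2. Libraries are separate mice, grouped by label. The members and lists were chosen with earlier results of these data known. Values per mouse are given for members at an unadjusted p under 0.05 or without overlap, the 3 highest and 3 lowest by FPKM in each compartment, Wars, Kars, Gars and Eprs; from other lists, counts and up to 4 genes by CPM plus those under 0.05, up to 6. Vars, Farsb, Lars, Atf4, Ddit3 and Rn18s-rs5 were named after their values were seen. Alternatives were DESeq2 1.42.0, other size factors, filters, covariates, a gene length correction and leaving out each mouse. The code was tested on simulated data. Transcript stretches came from GENCODE M21. Values of 1 mitochondrial gene and 1 promoter window are not reported here.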

Additional observations from a re-analysis of the deposited data

Results flagged for a closer look

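Cars in Bach2WT mouse 2, at 13.0 CPM, stood apart from the other wild-type mice, which measured 8.09 to 8.91 CPM. Its gap to the next mouse was 0.832 of the range of the group, above Dixon's critical value for 4 samples. Chance gives such a value in about 1 in 20 groups, and 1 of 80 groups checked showed it.

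The genotype difference of Wars went opposite ways in the sexes, with a log2 difference of -1.32 in females and 0.26 in males. The interaction was 1.50 (male minus female), with an unadjusted p of 0.00367 and an adjusted p of 0.793 in edgeR's quasi-likelihood test.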

How the results depend on the processing

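No synthetase passed an adjusted p under 0.05 in any of the settings tried. The number of genes called over the whole table was 1, against 58 with DESeq2, 73 without the filter on low counts, and 0 with at least 10 counts in every mouse, with sex as a covariate, with the replicate block, or without any single mouse; the cause was not tested. The sex by genotype interaction called 0 genes in edgeR and 15 in DESeq2, none of them a synthetase. Synthetases lower at an unadjusted p under 0.05 numbered 4, between 4 and 6 over the other settings, and between 1 (without Bach2WT mouse 2) and 7 (without Bach2WT mouse 1) when a mouse was left out; those higher numbered 0 to 1, the single gene being Vars without Bach2KO mouse 3. Cytosolic genes with a negative log2 fold change numbered 18 in each of the 8 other settings and 16 to 19 without a mouse, and their median ran from -0.26 to -0.14. Every setting applied TMM or similar size factors, so how far this direction rests on such scaling was not tested. The mitochondrial median ran from -0.22 to 0.0023, the latter without Bach2WT mouse 4, and was -0.03 without Lars2, a setting added after seeing the data. The cytosolic minus mitochondrial difference ran from -0.16 to -0.03 without a mouse and was -0.14 without Lars2. Gars turned from 0.06 to -0.020, -5.07e-05 and -0.075 without Bach2KO mouse 1, Bach2KO mouse 2 and Bach2WT mouse 4 (range over all mice left out -0.075 to 0.18), and Eprs from -0.18 to 0.053 without Bach2WT mouse 2 (range -0.29 to 0.053). Replicate numbers did not pair the mice (correlations of deviations 0.21, -0.034, -0.041 and -0.054). With the replicate block, 6 synthetases were lower at an unadjusted p under 0.05 and the cytosolic median was -0.18. Low counts limit the mitochondrial genes, 11 of which had a mouse under 100 counts.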
